A study of Homo sapiens with 12 samples.

Results

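Antisense RNAs are noncoding transcripts read from the DNA strand opposite to a named gene, the sense gene, whose symbol they carry with the ending -AS1, -AS2 or -AS3. Here 378 of them were followed, out of 777 antisense genes with a probe set of a single symbol on the array and out of 14725 genes tested in all. The 378 were chosen by the level alone: in at least 3 of the 12 arrays their brightest probe set exceeded the array's 40th percentile, which was a log2 intensity of 4.86 to 4.95. Their symbols ended in -AS1 for 355, in -AS2 for 19 and in -AS3 for 4. Of the 378, 301 lay above that filter level in all 12 arrays, 77 did not, and 43 of these 77 lay below it in every array of at least 1 group; 0 were above it in 1 group only. The members just inside the filter were PHC2-AS1, PYCARD-AS1 and TTC7B-AS2, with mean log2 intensities of 4.83, 4.79 and 4.84, and the antisense genes just outside it were FOXN3-AS3, MSANTD2-AS1 and TNFRSF10B-AS1, with 4.82, 4.60 and 4.81. The 399 antisense genes not kept had mean levels of 2.50 to 4.84, with a median of 3.65.

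RNA of H929 cells, a human line grown from the plasma cell cancer multiple myeloma, was hybridised to 12 microarrays, 3 for each of 4 groups. One arm was infected with a short hairpin against BCL9, a coactivator of beta-catenin in Wnt signalling (shBCL9), or with a control hairpin against green fluorescent protein (shGFP), and in both groups GFP-positive cells were sorted by flow cytometry. The other arm was transfected with human miR-30 (labelled hsa-miR-30a/b/c/d/e) or, as control, cel-miR-67, a microRNA of the worm Caenorhabditis elegans. Since the labels name no separate cultures within a group, p-values here measure only how these arrays vary, which may be technical, and the number of arrays limits the precision.

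Antisense RNAs can start at the promoter of their sense gene and run the other way, lie within it, or overlap its far end. Some are known to act on the neighbouring gene in cis, through transcription across it or by recruiting chromatin proteins, and some act in trans, for example by binding microRNAs, while for most no function is established. MicroRNAs of the miR-30 family share the seed, the bases that pair with target RNAs. How the 5 members that the label names were combined for the transfection is not stated. The RefSeq sequences of those found are given with the seed, bases 2 to 8, in capitals (GRCh38.p14).
hsa-miR-30a-5p: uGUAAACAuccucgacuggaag
hsa-miR-30c-5p: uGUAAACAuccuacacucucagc
hsa-miR-30e-5p: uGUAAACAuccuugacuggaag

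BCL9 itself measured 7.73, 7.61 and 7.85 on the log2 scale in shBCL9 cells, against 7.88, 7.90 and 7.88 in shGFP cells, a difference of -0.15 ± 0.07 (SE; limma adjusted p = 0.087) that did not pass the test, although the 3 shBCL9 arrays lay below the 3 shGFP arrays. All 8 plasma cell markers looked at (SDC1, CD38, TNFRSF17, IRF4, XBP1, PRDM1, JCHAIN and SLAMF7) lay above the filter level in all 12 arrays, with means of 9.76 to 14.03. Some signs of RNA quality moved with the hairpin and another did not. The log2 difference between 3′ and 5′ probe sets of GAPDH was 0.13 ± 0.02 in shBCL9 cells and 0.14 ± 0.02 in shGFP cells (SD, n = 3 each). The log2 difference between 3′ and 5′ probe sets of ACTB was 1.67 ± 0.08 in shBCL9 cells and 1.30 ± 0.11 in shGFP cells, and the 18S rRNA signal was 13.23 ± 0.02 and 12.38 ± 0.07 in the same groups (SD, n = 3 each). In the transfected arm the ACTB difference was 2.07 ± 0.01 in miR-30 cells and 2.16 ± 0.09 in cel-miR-67 cells, and the 18S signal was 12.64 ± 0.04 and 12.50 ± 0.05. These 18S values did not overlap either, at 12.60 to 12.67 in miR-30 cells and 12.46 to 12.57 in cel-miR-67 cells. Over the 14725 genes tested, arrays of the same group correlated at 0.997 to 0.998, miR-30 with cel-miR-67 arrays at 0.996 to 0.997, and shBCL9 with shGFP arrays at 0.982 to 0.986.

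The antisense RNAs were dim. Their mean log2 intensity had a median of 5.95, with a range of 4.46 to 11.74, while the median over all genes tested was 7.52; both figures depend on the probes as well as on the RNA, since intensities of different probe sets are not on a common scale. The 8 members with the brightest probe sets were EPB41L4A-AS1, OIP5-AS1, PRR34-AS1, WAC-AS1, FGD5-AS1, THAP9-AS1, OTUD6B-AS1 and TRG-AS1. EPB41L4A-AS1, the host transcript of the small nucleolar RNA SNORA13, averaged 11.74 over the arrays, and OIP5-AS1, known as Cyrano for its conserved site that binds miR-7 and triggers its decay, averaged 10.85. In RefSeq 374 of the 378 members were found, of which 371 are listed as lncRNA and 3 as antisense RNA. Of 20 often studied antisense RNAs, 16 were members. CDKN2B-AS1, the antisense RNA of the INK4 locus, GATA3-AS1 and DSCAM-AS1 were on the array but below the filter, and HIF1A-AS2 had no probe set of its symbol alone.

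Levels of some members differed between the arms. In the 2 control groups, 4 members had a log2 intensity at least 1 higher in shGFP than in cel-miR-67 cells and 33 had one at least 1 lower. The median difference over the members was -0.01. Such differences were not counted over all genes tested, so the counts cannot be read as a trait of antisense RNAs. Over all those genes, shGFP with cel-miR-67 arrays correlated at 0.949 to 0.953. Infection, sorting and transfection cannot be told apart here, so these are levels only and were not tested. SH3RF3-AS1 had the largest difference, 8.72 in shGFP and 3.74 in cel-miR-67 cells, and lay below the filter level in all 6 transfected arrays. ASH1L-AS1 and TMPO-AS1 were likewise brighter in the infected control, at 9.42 and 6.78 in shGFP cells, against 8.12 and 5.58 in cel-miR-67 cells. ZNF793-AS1, ZNF436-AS1 and ACTR3-AS1 had the largest differences the other way, at 5.01, 6.38 and 6.01 in shGFP cells, against 7.23, 8.41 and 7.95 in cel-miR-67 cells.

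With the hairpin against BCL9, 126 of the 378 antisense RNAs changed, 59 upward and 67 downward (limma, Benjamini-Hochberg adjusted p under 0.05 over all genes tested). That is 33.3%, below the 41.5% of all genes tested that were called in this comparison, of which 18.7% were higher and 22.9% lower. In all, 4 members fell at least 2-fold and 0 rose at least 2-fold, against 1.44% and 0.462% (1.9% together) of all genes tested. Of these 4, 3 (TMEM132D-AS1, SH3RF3-AS1 and FSIP2-AS2) lay below the filter level in every array of at least 1 group and so passed it through the groups where they were high. Among the 301 members above the filter level in all 12 arrays, 1 fell at least 2-fold (DTNB-AS1). The median change of the members was 0.05 on the log2 scale and that of all genes tested 0.03. In 78 members the 3 shBCL9 arrays all lay above the 3 shGFP arrays and in 80 all below, against 24.8% and 27.2% (52% together) of all genes tested. Fewer cells with an RNA and less of it in each cell cannot be told apart in such bulk samples.

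**Figure D1:**
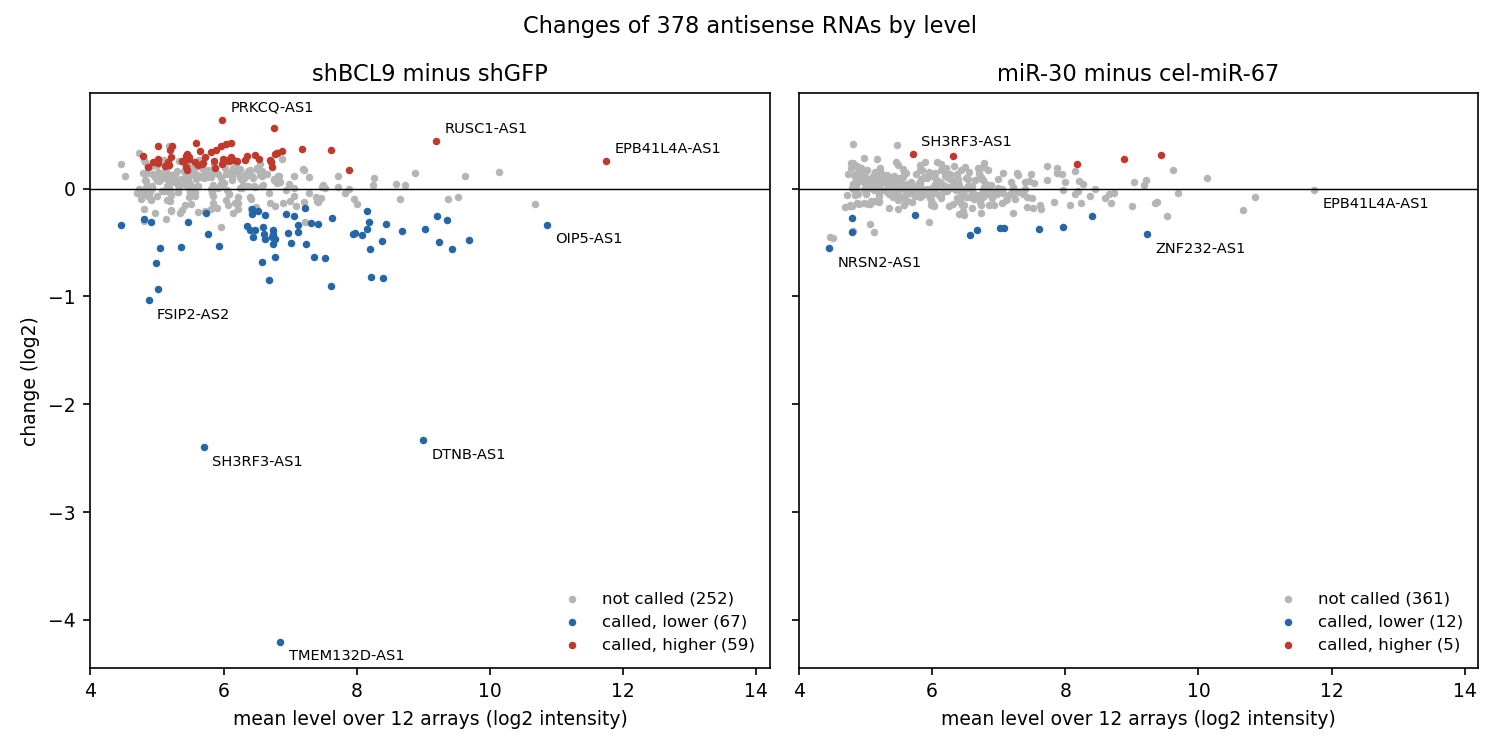
Change of each of the 378 antisense RNAs (vertical axis, log2) against its mean level over the 12 arrays (horizontal axis, log2 intensity), for shBCL9 minus shGFP on the left and miR-30 minus cel-miR-67 on the right. Red and blue points passed the test upward and downward, 59 and 67 on the left, 5 and 12 on the right, and 3 points on the left lie below a change of -2.

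The members that fell were brighter than those that rose. The called falls had a median mean level of 6.94 and the called rises one of 5.88. Among the 189 members over the median level, 28 rose and 54 fell. Among the 189 at or under it, 31 rose and 13 fell. All genes tested, divided at the same level, had 19.1% higher and 27.3% lower above it, and 17.3% higher and 8.9% lower at or under it. Of the 301 members above the filter level in all 12 arrays, 50 rose and 56 fell.

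The ACTB difference and the 18S signal move with the hairpin, as given above. In neither measure do the values of shBCL9 and shGFP cells overlap, the ACTB difference being 1.59 to 1.75 and 1.17 to 1.36. With the ACTB difference as a covariate 55 members passed the test, 24 higher and 31 lower. With the 18S signal 1 did (SH3RF3-AS1, lower, limma adjusted p = 0.044). The part of RNA quality in the changes cannot be told apart from that of the hairpin. Among the other classes of noncoding genes, 49 of 290 LINC genes (long intergenic noncoding RNAs) rose and 32 fell, and 12 of 107 genes with a symbol ending in -DT (divergent transcripts) rose and 21 fell. These make 27.9% and 30.8% called, beside 41.5% of all genes tested. In smaller classes the called genes were 4 of 8 SNHG genes, 8 of 16 ending in -IT1 or -OT1, 8 of 18 microRNA host genes and 1 of 6 ending in -AS. The differences between the classes were not tested.

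**Figure D2:**
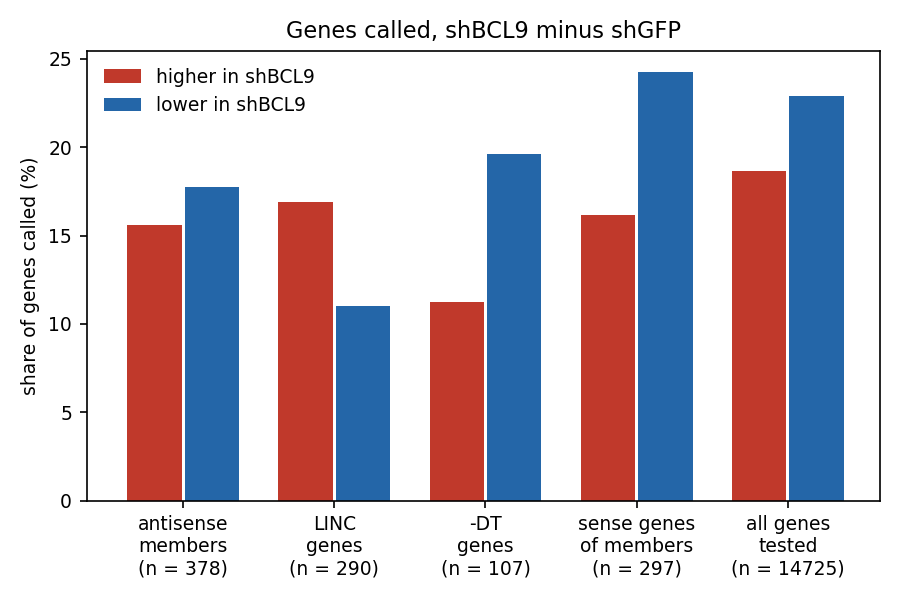
Share of genes that passed the test for shBCL9 minus shGFP (vertical axis, percent of the class), red for higher and blue for lower, in the 378 antisense members, 290 LINC genes, 107 -DT genes, the 297 sense genes of members and all 14725 genes tested. The antisense members had 59 higher and 67 lower, the sense genes 48 and 72.

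The largest fall was that of TMEM132D-AS1, antisense to a gene for a transmembrane protein of neural tissue. It measured 4.32, 4.26 and 3.75 in shBCL9 cells, against 8.17, 8.30 and 8.47 in shGFP cells, a change of -4.20 ± 0.13 (SE; limma adjusted p = 1.2e-10), or 18.4-fold lower. The shBCL9 arrays lay below the filter level and all 9 other arrays well above it, since miR-30 and cel-miR-67 cells had means of 7.42 and 7.57. The size of the fold thus rests on values below the filter level. It also rests on a probe set with a suffix, whose specificity was not tested. Among the members read from plain probe sets the largest fall was -2.40. A second probe set of the gene fell by 2.02, to a mean of 4.43 in shBCL9 cells, against 6.45 in shGFP cells. TMEM132D itself was not above the filter.

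SH3RF3-AS1, antisense to a scaffold protein with a RING domain, measured 6.36, 6.35 and 6.25 in shBCL9 cells, against 8.56, 8.73 and 8.87 in shGFP cells, and changed by -2.40 ± 0.07 (SE; limma adjusted p = 9.1e-11), 5.28-fold lower. All 6 infected arrays were above the filter level, and shBCL9 lay between shGFP and the transfected groups, which had 4.05 for miR-30 and 3.74 for cel-miR-67. Its sense gene SH3RF3 changed much less, by -0.19 ± 0.07 (SE; limma adjusted p = 0.034), a call that was lost without shBCL9 replicate 1, shBCL9 replicate 3, shGFP replicate 1, shGFP replicate 2 or shGFP replicate 3 (adjusted p up to 0.12). DTNB-AS1, which lies inside the gene of beta-dystrobrevin, a component of the dystrophin complex, measured 6.98, 7.20 and 6.77 in shBCL9 cells, against 9.25, 9.28 and 9.42 in shGFP cells. Its change was -2.33 ± 0.10 (SE; limma adjusted p = 4.3e-09), 5.04-fold lower, with all 12 arrays above the filter level and no overlap of the groups. DTNB differed by -0.05 (adjusted p = 0.61) and did not pass the test.

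FSIP2-AS2, named for a gene of the sperm fibrous sheath, and EDNRB-AS1, named for the endothelin receptor type B, fell at low levels. FSIP2-AS2 measured 3.32, 3.61 and 3.44 in shBCL9 cells, against 4.29, 4.60 and 4.60 in shGFP cells, a change of -1.04 ± 0.11 (SE; limma adjusted p = 9.1e-06). All 6 of these values lay below the filter level, which the gene passed through the transfected arrays. EDNRB-AS1 measured 4.48, 4.32 and 4.26 in shBCL9 cells, against 5.51, 5.13 and 5.21 in shGFP cells, a change of -0.93 ± 0.10 (SE; limma adjusted p = 1.6e-05). Here the shBCL9 arrays alone lay below the filter level. KCNK15-AS1, at the locus of a potassium channel, was dimmer than EDNRB-AS1, with 4.43, 4.0 and 4.26 in shBCL9 cells, against 4.95, 4.67 and 5.14 in shGFP cells. Its change was -0.69 ± 0.13 (SE, limma adjusted p = 9.2e-04). All its shBCL9 values and the shGFP value of 4.67 lay below the filter level, while miR-30 and cel-miR-67 cells had means of 5.43 and 5.37.

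TSPOAP1-AS1, at the locus of a protein that binds the mitochondrial translocator protein, fell at a level far above the filter. It measured 6.38, 6.21 and 6.39 in shBCL9 cells, against 7.09, 7.33 and 7.27 in shGFP cells, a change of -0.90 ± 0.07 (SE; limma adjusted p = 4.7e-07), and a second probe set fell by 0.67. ACTR3-AS1, antisense to a subunit of the actin-nucleating Arp2/3 complex, measured 5.06, 5.32 and 5.12 in shBCL9 cells, against 5.95, 6.14 and 5.94 in shGFP cells, a change of -0.84 ± 0.07 (SE; limma adjusted p = 1.8e-06). TFAP2A-AS1, inside the gene of the transcription factor AP-2 alpha, changed by -0.83 ± 0.06 (SE; limma adjusted p = 2.1e-07), with means of 7.39 ± 0.08 in shBCL9 cells and 8.22 ± 0.03 in shGFP cells (SD, n = 3 each). In these 3 genes no shBCL9 array reached the lowest shGFP array. PSMA3-AS1, at the locus of an alpha subunit of the 20S proteasome, measured 7.28, 7.43 and 7.24 in shBCL9 cells, against 8.08, 8.07 and 8.26 in shGFP cells. Its change was -0.82 ± 0.07 (SE; limma adjusted p = 1.0e-06); its other probe sets, both dimmer, differed by -0.31 and -0.09, in the same direction. SH3BP5-AS1 and ILRUN-AS1 ended the list of the 12 largest falls with -0.68 (adjusted p = 3.5e-05) and -0.64 (adjusted p = 1.8e-06).

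**Figure D3:**
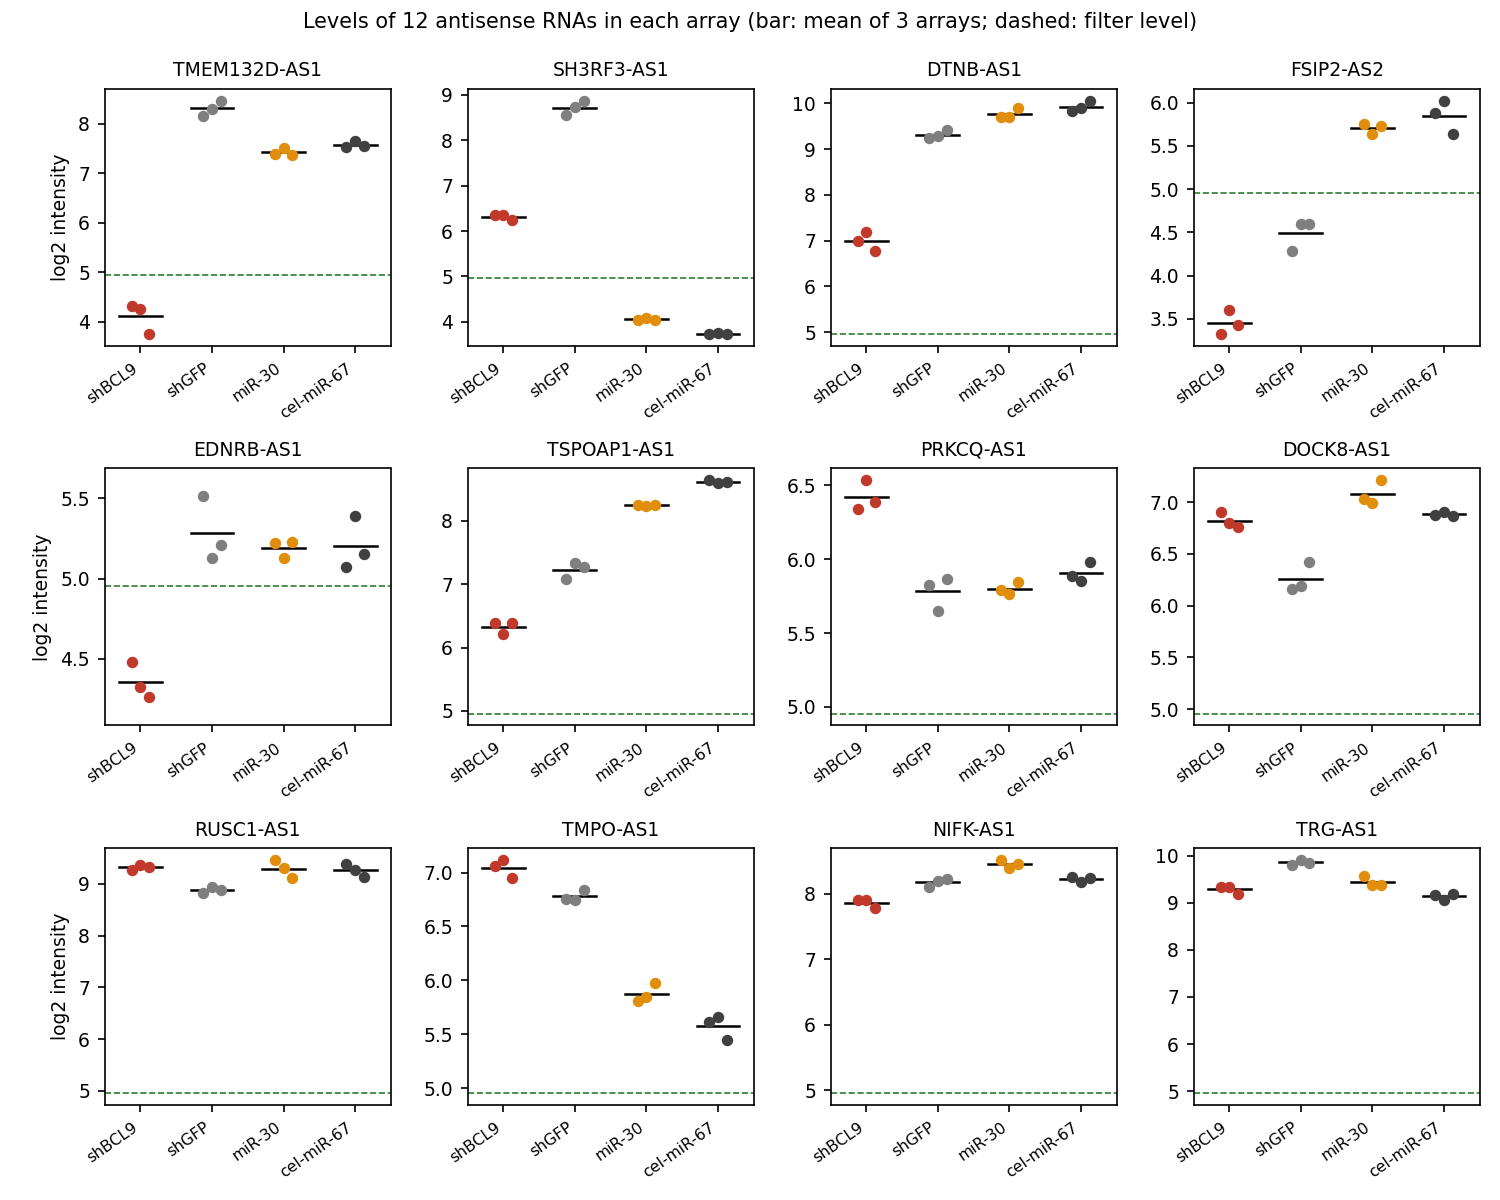
Log2 intensity (vertical axes, each with its own range) of 12 antisense RNAs in the 3 arrays of shBCL9, shGFP, miR-30 and cel-miR-67 cells; each point is an array, the black bar the mean of 3 and the dashed line the highest filter level of any array, 4.95. The shBCL9 points of TMEM132D-AS1 lie below the dashed line and those of the other 9 arrays above it, while TRG-AS1 and NIFK-AS1 are lower with shBCL9 than with shGFP and higher with miR-30 than with cel-miR-67.

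The largest rise was under 2-fold. PRKCQ-AS1, named for protein kinase C theta, a kinase of T cell receptor signalling, measured 6.34, 6.53 and 6.39 in shBCL9 cells, against 5.82, 5.65 and 5.87 in shGFP cells. It rose by 0.64 ± 0.07 (SE; limma adjusted p = 1.1e-05), or 1.56-fold, and the shBCL9 arrays lay above those of the other 3 groups. A second probe set of PRKCQ-AS1 rose by 0.42. DOCK8-AS1, inside the gene of a guanine nucleotide exchange factor of lymphocytes, measured 6.90, 6.80 and 6.76 in shBCL9 cells, against 6.16, 6.19 and 6.43 in shGFP cells, a rise of 0.56 ± 0.08 (SE; limma adjusted p = 8.9e-05). RUSC1-AS1, bright in every array, measured 9.27, 9.36 and 9.33 in shBCL9 cells, against 8.82, 8.94 and 8.88 in shGFP cells, a rise of 0.44 ± 0.09 (SE; limma adjusted p = 0.0013). Its second probe set, with a mean level of 6.91, went the other way, by -0.27. On the probe sets tested, the groups did not overlap in any of these 3 genes.

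The other large rises lay between 0.36 and 0.43: FOXD3-AS1 (0.43), MTUS2-AS1 (0.42), EXTL3-AS1 (0.42), BAALC-AS2 (0.39), MSI2-AS1 (0.39), ANXA2R-AS1 (0.39), ZNF687-AS1 (0.37), TNRC6C-AS1 (0.36) and DTD1-AS1 (0.36), with adjusted p from 6.6e-04 to 0.019. MTUS2-AS1 was no longer called without shBCL9 replicate 3 or shGFP replicate 2 (adjusted p up to 0.084), nor TNRC6C-AS1 without shBCL9 replicate 3 (adjusted p up to 0.051). Most of these genes were dim, with shGFP means from 4.84 for BAALC-AS2 to 7.0 for TNRC6C-AS1.

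Of the 16 often studied members, 6 fell with shBCL9, 4 rose and 6 did not pass the test (41.5% of all genes tested passed it). OIP5-AS1 measured 10.09, 10.16 and 9.98 in shBCL9 cells, against 10.43, 10.37 and 10.43 in shGFP cells, a fall of -0.34 ± 0.07 (SE; limma adjusted p = 0.0015), and its other probe sets, also bright, differed by -0.32 and -0.11. PSMB8-AS1, at the immunoproteasome locus of the major histocompatibility complex, changed by -0.56 ± 0.07 (SE; limma adjusted p = 4.6e-05). FGD5-AS1 changed by -0.48 (adjusted p = 6.1e-05), ZEB1-AS1, antisense to a repressor that drives epithelial-mesenchymal transition, by -0.42 (adjusted p = 2.0e-04), GABPB1-AS1 by -0.42 (adjusted p = 0.002) and MAPKAPK5-AS1 by -0.29 (adjusted p = 0.0012). A second probe set of FGD5-AS1, with a mean level of 6.23, differed by 0.13, and further probe sets of GABPB1-AS1 and MAPKAPK5-AS1 also disagreed in sign.

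EPB41L4A-AS1 rose, with 11.62, 11.63 and 11.59 in shBCL9 cells, against 11.36, 11.35 and 11.35 in shGFP cells, a change of 0.26 ± 0.05 (SE; limma adjusted p = 8.9e-04). Its second probe set went the other way, by -0.44, so the direction depends on the probe set. PRKCQ-AS1, TMPO-AS1 (0.26 (adjusted p = 0.009)) and HOXA-AS3 of the HOXA cluster (0.20 (adjusted p = 0.035)) rose as well. HOXA-AS3 lost its call without shBCL9 replicate 1, shBCL9 replicate 3, shGFP replicate 1 or shGFP replicate 2 (adjusted p up to 0.12). The 6 that did not pass the test were SBF2-AS1 -0.10 (adjusted p = 0.2), MCM3AP-AS1 0.00 (adjusted p = 0.98), IDH1-AS1 0.02 (adjusted p = 0.89), HOXA-AS2 0.03 (adjusted p = 0.83), NNT-AS1 0.09 (adjusted p = 0.46) and FOXD2-AS1 0.26 (adjusted p = 0.085). These values are log2 changes.

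With miR-30, 17 of the 378 antisense RNAs changed, 5 upward and 12 downward. That is 4.50%, beside 4.98% of all genes tested (2.34% higher and 2.63% lower), and 62 members had an unadjusted p under 0.05, as did 21% of all genes tested. In 48 members the 3 miR-30 arrays all lay above the 3 cel-miR-67 arrays and in 32 all below, beside 10% and 16.1% (26.1% together) of all genes tested. No change reached 2-fold, among the members or among all genes tested. The count rests on single arrays: it was 9 without miR-30 replicate 1, 10 without miR-30 replicate 2, and 9, 6 and 9 without cel-miR-67 replicates 1, 2 and 3. It was 1 with the 18S signal as a covariate and 11 in a fit of the 6 transfected arrays alone. Since the 18S values of miR-30 and cel-miR-67 cells do not overlap, this covariate cannot be told apart from the treatment.

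The largest fall with miR-30 was that of NRSN2-AS1, which measured 4.65, 5.05 and 4.79 in miR-30 cells, against 5.29, 5.64 and 5.23 in cel-miR-67 cells, a change of -0.55 ± 0.12 (SE; limma adjusted p = 0.023). Its levels lie around the filter level, and the call was lost without miR-30 replicate 1, miR-30 replicate 3 or cel-miR-67 replicate 2 (adjusted p up to 0.088). ZNF232-AS1, at a zinc finger gene, was far brighter and fell with means of 9.69 ± 0.10 in miR-30 cells and 10.11 ± 0.10 in cel-miR-67 cells (SD, n = 3 each), a change of -0.42 ± 0.07 (SE; limma adjusted p = 0.0075) on a probe set whose suffix marks it as shared between transcripts; its second probe set, without that suffix, differed by -0.30. TSPOAP1-AS1 measured 8.25, 8.23 and 8.25 in miR-30 cells, against 8.64, 8.60 and 8.62 in cel-miR-67 cells, a change of -0.38 ± 0.07 (SE; limma adjusted p = 0.0082). ACTR3-AS1 measured 7.51, 7.57 and 7.62 in miR-30 cells, against 7.94, 7.94 and 7.98 in cel-miR-67 cells, a change of -0.38 ± 0.07 (SE; limma adjusted p = 0.011). In all of these the miR-30 arrays lay below the cel-miR-67 arrays.

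CARD8-AS1, which starts within 1 kb of the gene of the inflammasome sensor CARD8, fell with 7.77, 7.94 and 7.91 in miR-30 cells, against 8.20, 8.33 and 8.16 in cel-miR-67 cells, a change of -0.36 ± 0.06 (SE; limma adjusted p = 0.0075). SH3BP5-AS1 (-0.43 (adjusted p = 0.012)), NUTM2A-AS1 (-0.40 (adjusted p = 0.04)), RAB11B-AS1 (-0.37 (adjusted p = 0.028)), ZBED5-AS1 (-0.37 (adjusted p = 0.011)), LRRC52-AS1 (-0.27 (adjusted p = 0.03)), TFAP2A-AS1 (-0.25 (adjusted p = 0.026)) and MIDEAS-AS1 (-0.24 (adjusted p = 0.035)) made up the rest of the falls. A second probe set of RAB11B-AS1 differed by 0.06, in the opposite direction. NUTM2A-AS1 and LRRC52-AS1 lay above the filter level in 4 and 3 arrays only. The calls of CARD8-AS1, ACTR3-AS1, TSPOAP1-AS1 and ZNF232-AS1 held on leaving out any single array, and those of the other 13 members did not. SH3BP5-AS1 lost its call without miR-30 replicate 2, cel-miR-67 replicate 1 or cel-miR-67 replicate 2 (adjusted p up to 0.052), ZBED5-AS1 without miR-30 replicate 2 or cel-miR-67 replicate 2 (adjusted p up to 0.055), and RAB11B-AS1 without miR-30 replicate 1, miR-30 replicate 2, cel-miR-67 replicate 2 or cel-miR-67 replicate 3 (adjusted p up to 0.12). LRRC52-AS1 lost it without miR-30 replicate 1, miR-30 replicate 2, cel-miR-67 replicate 1, cel-miR-67 replicate 2 or cel-miR-67 replicate 3 (adjusted p up to 0.092), and TFAP2A-AS1 without miR-30 replicate 2, miR-30 replicate 3, cel-miR-67 replicate 1, cel-miR-67 replicate 2 or cel-miR-67 replicate 3 (adjusted p up to 0.11). For MIDEAS-AS1 and NUTM2A-AS1 the loss came even without arrays of the infected arm, which share the estimate of the spread: MIDEAS-AS1 without shBCL9 replicate 1, shGFP replicate 2, miR-30 replicate 1, miR-30 replicate 3, cel-miR-67 replicate 2 or cel-miR-67 replicate 3 (adjusted p up to 0.13), and NUTM2A-AS1 without shBCL9 replicate 1, shBCL9 replicate 2, shGFP replicate 2, miR-30 replicate 1, miR-30 replicate 3, cel-miR-67 replicate 1, cel-miR-67 replicate 2 or cel-miR-67 replicate 3 (adjusted p up to 0.15).

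The 5 rises with miR-30 were SH3RF3-AS1, TRG-AS1, TMPO-AS1, ASH1L-AS1 and NIFK-AS1. SH3RF3-AS1 measured 4.05, 4.08 and 4.03 in miR-30 cells, against 3.73, 3.74 and 3.74 in cel-miR-67 cells, all below the filter level, a rise of 0.32 ± 0.07 (SE; limma adjusted p = 0.021). TRG-AS1, from the locus of the T cell receptor gamma chain, measured 9.57, 9.38 and 9.37 in miR-30 cells, against 9.16, 9.06 and 9.18 in cel-miR-67 cells, a rise of 0.31 ± 0.07 (SE; limma adjusted p = 0.021). TMPO-AS1, antisense to a protein of the nuclear lamina, rose by 0.30 ± 0.07 (SE; limma adjusted p = 0.028), ASH1L-AS1, antisense to a histone methyltransferase, by 0.27 ± 0.06 (SE; limma adjusted p = 0.018), and NIFK-AS1, antisense to a nucleolar partner of Ki-67, by 0.23 ± 0.05 (SE; limma adjusted p = 0.03). A second probe set of NIFK-AS1, with a mean level of 6.10, differed by -0.30. SH3RF3-AS1 lost its call without miR-30 replicate 1, miR-30 replicate 2, cel-miR-67 replicate 1, cel-miR-67 replicate 2 or cel-miR-67 replicate 3 (adjusted p up to 0.084), TRG-AS1 without miR-30 replicate 1, cel-miR-67 replicate 1 or cel-miR-67 replicate 2 (adjusted p up to 0.092), TMPO-AS1 without miR-30 replicate 2, miR-30 replicate 3, cel-miR-67 replicate 1 or cel-miR-67 replicate 3 (adjusted p up to 0.1), ASH1L-AS1 without miR-30 replicate 1, cel-miR-67 replicate 1 or cel-miR-67 replicate 3 (adjusted p up to 0.065), and NIFK-AS1 without miR-30 replicate 1, miR-30 replicate 3, cel-miR-67 replicate 1, cel-miR-67 replicate 2 or cel-miR-67 replicate 3 (adjusted p up to 0.12).

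The comparisons share no control arrays, and 13 members changed in both. In 10 the direction was the same, 9 lower (TSPOAP1-AS1, ACTR3-AS1, TFAP2A-AS1, SH3BP5-AS1, ZBED5-AS1, ZNF232-AS1, NRSN2-AS1, NUTM2A-AS1 and MIDEAS-AS1) and 1 higher (TMPO-AS1), beside 1.86% of all genes tested. In 3 it was opposite (SH3RF3-AS1, TRG-AS1 and NIFK-AS1), beside 0.903% of all genes tested. With shBCL9, SH3BP5-AS1 measured 5.41, 5.21 and 5.30 in shBCL9 cells, against 6.03, 5.89 and 6.04 in shGFP cells, and ZBED5-AS1 6.11, 6.03 and 5.95 in shBCL9 cells, against 6.45, 6.62 and 6.53 in shGFP cells; neither pair of groups overlapped. ZNF232-AS1 changed by -0.49 (adjusted p = 1.7e-04) and MIDEAS-AS1 by -0.23 (adjusted p = 0.0078) with shBCL9. Both infected groups had means below the filter level for NRSN2-AS1 (3.64 in shBCL9, 3.98 in shGFP cells) and NUTM2A-AS1 (4.38 and 4.66). MIDEAS-AS1 had a mean of 4.82 in shBCL9 cells, also below it. These falls thus rest on dim values. The calls of NRSN2-AS1 (-0.34 (adjusted p = 0.044)) and NUTM2A-AS1 (-0.28 (adjusted p = 0.039)) with shBCL9 were both near the threshold and were lost without several arrays, NRSN2-AS1 without shBCL9 replicate 1, shBCL9 replicate 2, shBCL9 replicate 3, shGFP replicate 1, shGFP replicate 2, miR-30 replicate 3 or cel-miR-67 replicate 1 (adjusted p up to 0.17) and NUTM2A-AS1 without shBCL9 replicate 1, shBCL9 replicate 2, shBCL9 replicate 3, shGFP replicate 1, shGFP replicate 3 or miR-30 replicate 3 (adjusted p up to 0.13). TRG-AS1 measured 9.34, 9.34 and 9.20 in shBCL9 cells, against 9.81, 9.92 and 9.84 in shGFP cells, a change of -0.57 ± 0.07 (SE; limma adjusted p = 2.5e-05), and NIFK-AS1 changed by -0.31 (adjusted p = 6.4e-04) with shBCL9. Across the 378 members the 2 sets of changes correlated at r = 0.20 (Spearman rho = 0.21), and across all genes tested at 0.13 and 0.17; the genes share their libraries and are not independent replicates.

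**Figure D4:**
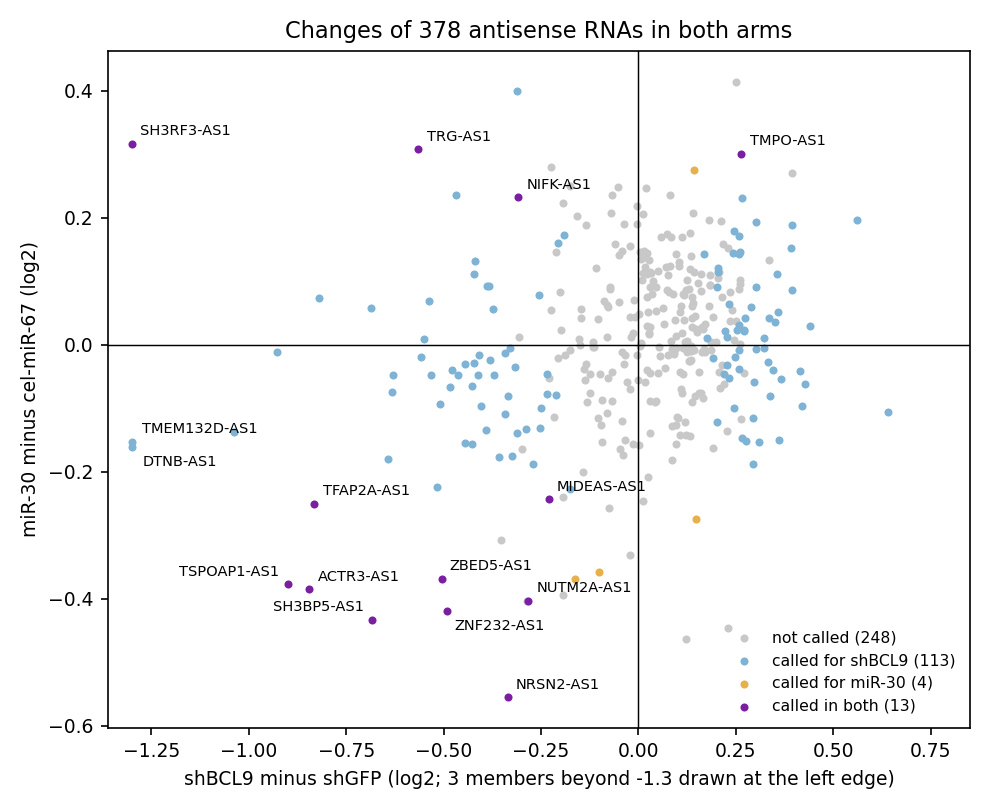
Change of each of the 378 antisense RNAs with shBCL9 against shGFP (horizontal axis, log2, with the 3 members below -1.3 drawn at the left edge) and with miR-30 against cel-miR-67 (vertical axis, log2). Purple points are the 13 members that passed the test in both, 9 of them at the lower left; blue and orange points passed it with shBCL9 or miR-30 alone.

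The difference between the effects of miR-30 and shBCL9 passed its own test in 67 members, 44 higher and 23 lower, or 17.7% beside 26.3% of all genes tested (14.6% higher and 11.7% lower). A positive difference means a less negative or more positive change with miR-30. It was largest for TMEM132D-AS1 (4.05 ± 0.18 SE), SH3RF3-AS1 (2.72), DTNB-AS1 (2.17), EDNRB-AS1 (0.92), FSIP2-AS2 (0.90), PSMA3-AS1 (0.89), TRG-AS1 (0.87) and KCNK15-AS1 (0.75). On the negative side stood PRKCQ-AS1 (-0.75), NECTIN3-AS1 (-0.68), TNRC6C-AS1 (-0.51), FOXD3-AS1 (-0.49), GRAPL-AS1 (-0.48), GNAS-AS1 (-0.46), EXTL3-AS1 (-0.46) and TNS2-AS1 (-0.43). NECTIN3-AS1 passed neither single test, with 0.23 (adjusted p = 0.18) for shBCL9 and -0.45 (adjusted p = 0.077) for miR-30. Its means of 4.03 in shBCL9, 3.80 in shGFP and 4.78 in miR-30 cells lay below the filter level. Only cel-miR-67 cells had a mean above it, 5.23, so this difference rests on dim values. The rises of GRAPL-AS1 (0.29 (adjusted p = 0.04)) and TNS2-AS1 (0.28 (adjusted p = 0.019)) with shBCL9 were lost, for GRAPL-AS1 without shBCL9 replicate 1, shBCL9 replicate 3, shGFP replicate 2, shGFP replicate 3 or miR-30 replicate 2 (adjusted p up to 0.16), and for TNS2-AS1 without shBCL9 replicate 3, shGFP replicate 1 or shGFP replicate 2 (adjusted p up to 0.082).

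The sense gene named by the symbol was measured above the filter level for 300 members, which make pairs with 297 different sense genes. With shBCL9 both members of 45 pairs passed the test, 34 in the same direction (16 up, 18 down) and 11 in opposite directions (5 with the antisense RNA lower, 6 with it higher). In 56 pairs the antisense RNA alone changed, in 75 the sense gene alone, and in 124 neither did. Taken singly, 33.3% of the 378 members, 40.4% of the 297 sense genes and 41.5% of all genes tested passed this test. With shares this large many unrelated genes pass together, and whether 45 pairs exceed that number was not tested. The changes had the same sign in 181 pairs (60.3%) and correlated at r = 0.13 (rho = 0.23) across pairs, which share their libraries and, where the genes overlap, may share labelled RNA. Which strand each probe set reads was taken from the platform's annotation and was not tested. Without shBCL9 replicate 2 or 3, or shGFP replicate 3, the opposite pairs fell to 7, 6 and 5.

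**Figure D5:**
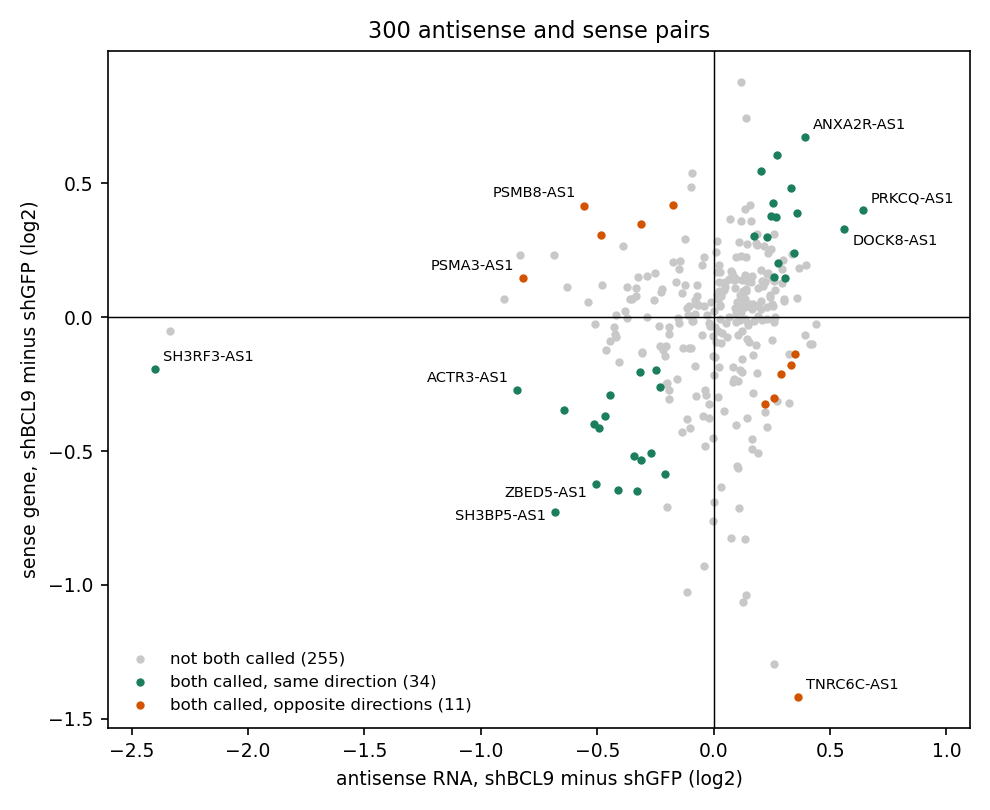
Change of the sense gene (vertical axis, log2) against that of its antisense RNA (horizontal axis, log2) for shBCL9 minus shGFP in 300 pairs. Green points are the 34 pairs in which both passed the test in the same direction, orange points the 11 in opposite directions; SH3RF3-AS1 lies at the left edge with a sense change near 0, and TNRC6C-AS1 at the bottom right.

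Pairs that fell together with shBCL9 included SH3BP5-AS1 with SH3BP5, a binding partner of the kinase BTK: the antisense RNA changed by -0.68 and SH3BP5 by -0.73 (adjusted p = 5.0e-05). ZBED5 measured 9.87, 9.86 and 9.82 in shBCL9 cells, against 10.39, 10.50 and 10.53 in shGFP cells, a change of -0.62 ± 0.05 (SE; limma adjusted p = 6.8e-07), beside -0.51 for ZBED5-AS1. ZNF232 changed by -0.42 (adjusted p = 2.0e-04), ACTR3 by -0.27 (adjusted p = 2.5e-04), ILRUN, a regulator of inflammation and lipid metabolism, by -0.35 (adjusted p = 0.0017), ATXN1 by -0.37 (adjusted p = 2.5e-04) and USP30, a mitochondrial deubiquitinase, by -0.40 (adjusted p = 0.0021). Their antisense RNAs changed by -0.49, -0.84, -0.64, -0.47 and -0.52. On plain probe sets alone, ILRUN and ATXN1 went the other way, by 0.02 and 0.19.

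Pairs that rose together included PRKCQ-AS1 with PRKCQ and DOCK8-AS1 with DOCK8. PRKCQ measured 6.25, 6.26 and 6.24 in shBCL9 cells, against 5.93, 5.88 and 5.75 in shGFP cells, a rise of 0.40 ± 0.07 (SE; limma adjusted p = 5.8e-04), and its shBCL9 arrays lay above its shGFP arrays, as did those of PRKCQ-AS1. DOCK8 rose by 0.33 (adjusted p = 0.018), a call lost without shBCL9 replicate 3 or shGFP replicate 1 (adjusted p up to 0.073). ANXA2R, the receptor of annexin A2, rose by 0.67 (adjusted p = 1.5e-04), more than ANXA2R-AS1 (0.39).

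Pairs that moved apart with shBCL9 were led by PSMA3-AS1, which fell by 0.82, while PSMA3 rose by 0.15 ± 0.05 (SE; limma adjusted p = 0.026). PSMB8-AS1 measured 7.54, 7.68 and 7.60 in shBCL9 cells, against 8.0, 8.23 and 8.26 in shGFP cells. PSMB8, a catalytic subunit of the immunoproteasome induced by interferon, measured 10.33, 10.33 and 10.27 in shBCL9 cells, against 9.90, 9.90 and 9.89 in shGFP cells, a rise of 0.42 ± 0.06 (SE; limma adjusted p = 2.0e-04). In both genes of this pair the groups did not overlap. PSMA3, in contrast, lost its call without shBCL9 replicate 2, shBCL9 replicate 3, shGFP replicate 1, shGFP replicate 2 or shGFP replicate 3 (adjusted p up to 0.075).

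TNRC6C, a partner of Argonaute in microRNA silencing, measured 5.17, 5.69 and 5.39 in shBCL9 cells, against 6.86, 6.94 and 6.71 in shGFP cells, a fall of -1.42 ± 0.11 (SE; limma adjusted p = 6.2e-07), the largest among the 297 sense genes. TNRC6C-AS1 rose by 0.36 on a probe set whose suffix marks cross-hybridisation, and its other probe sets differed by 0.02 and 0.14. CKMT2-AS1 changed by -0.48 and CKMT2, a mitochondrial creatine kinase of muscle, by 0.31 (adjusted p = 0.017); a second probe set of CKMT2-AS1, with a mean level of 6.58, differed by 0.02. ZNF213-AS1 fell by 0.31 and ZNF213 rose by 0.35 (adjusted p = 0.0061), with ZNF213-AS1 losing its call without shBCL9 replicate 1 or shGFP replicate 1 (adjusted p up to 0.068). In 5 further pairs of the list the antisense RNA was higher and the sense gene lower. These were EMC3-AS1 (0.35, and -0.14 for EMC3), EIF1B-AS1 (0.33, and -0.18 for EIF1B), CIRBP-AS1 (0.29, and -0.21 for CIRBP), ALDH1L1-AS2 (0.26, and -0.30 for ALDH1L1) and PTPRN2-AS1 (0.22, and -0.33 for PTPRN2). In each of these 5 pairs at least 1 of both calls was lost on leaving out an array: EMC3 without shBCL9 replicate 2, shBCL9 replicate 3, shGFP replicate 2 or shGFP replicate 3 (adjusted p up to 0.091), EIF1B without shBCL9 replicate 1, shBCL9 replicate 2, shGFP replicate 2 or shGFP replicate 3 (adjusted p up to 0.11), CIRBP-AS1 without shBCL9 replicate 2 or shGFP replicate 3 (adjusted p up to 0.062), ALDH1L1-AS2 without shBCL9 replicate 2, shBCL9 replicate 3, shGFP replicate 1 or shGFP replicate 3 (adjusted p up to 0.15), and PTPRN2-AS1 without shBCL9 replicate 3 or shGFP replicate 2 (adjusted p up to 0.053).

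With miR-30 both genes of a pair passed the test in 2 cases, CARD8-AS1 with CARD8, both lower, and TMPO-AS1 with TMPO, both higher. CARD8 changed by -0.19 ± 0.05 (SE; limma adjusted p = 0.049) and TMPO by 0.22 ± 0.06 (SE; limma adjusted p = 0.041). The call of CARD8 was lost in 11 of the 12 fits that left out an array, with adjusted p up to 0.95, and that of TMPO in 8, up to 0.13. Each of these fits chose the probe set of highest mean again, so a lost call can also come from another probe set. With shBCL9, CARD8 (limma adjusted p = 3.1e-05) lost its call without any of the 6 transfected arrays (up to 0.42), which do not enter that comparison. The changes with miR-30 had the same sign in 157 of the 300 pairs (52.3%) and correlated at r = 0.08. In 12 pairs the antisense RNA alone changed and in 12 the sense gene alone.

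The arrangement of the genes was taken from RefSeq (GRCh38.p14), which gave strands for both genes of 250 pairs, opposite in 249 of them (FAM131B-AS2 being listed on the strand of its sense gene). In 61 of the 378 the antisense gene lay inside the sense gene, in 54 the genes overlapped head to head with starts within 1 kb, in 36 head to head with starts further apart, in 49 tail to tail, and in 30 they diverged without overlap from starts within 1 kb. Among 74 measured pairs with facing starts within 1 kb, both genes changed with shBCL9 in 15, in the same direction in 13 and apart in 2 (PSMB8-AS1 and EIF1B-AS1). Among 128 measured pairs of any other arrangement on opposite strands, both changed in 17, the same way in 12 and apart in 5. Counted singly, the antisense RNA was called in 27 of the 74 and 44 of the 128, and the sense gene in 34 and 46. The changes correlated at r = 0.23 (rho = 0.30) across the 74 pairs and at 0.04 (rho = 0.14) across the 128. They had the same sign in nearly equal shares, 58.1% of the 74 and 57.8% of the 128. With miR-30 these shares were 48.6% and 53.1%. The 94 measured pairs without listed strands had r = 0.29 and the same sign in 66.0% with shBCL9. Of the 41 tail-to-tail pairs, both genes changed in 4, apart in 3. These counts are small, and the difference between the arrangements was not tested.

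The promoter windows, 250 bases before to 50 after the start, were rich in CpG where the starts face each other. A window was listed for 287 members, with a median of 20 CpG dinucleotides and a GC content of 62.7%, beside 14 and 58.3% for all 27196 listed windows and 27.5 and 66.8% for the 84 members with facing starts within 1 kb. Members that rose with shBCL9 had a median of 20 CpG, those that fell 23 and those not called 19. The letters GGGCGG, the GC box, occurred on either strand in 51.6% of the members' windows, 65.5% of those with facing starts and 44.6% of all windows. TATAAA occurred in 4.18%, 4.76% and 12% of the same sets, CCAAT in 34.5%, 29.8% and 35.7%, CACGTG, the E-box of MYC, in 9.41%, 11.9% and 7.42%, and ATCAAAG, the core letters bound by the TCF factors of the Wnt pathway, in 1.05%, 1.19% and 2.67%. A match of letters is a description and no evidence of binding.

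The windows of the 4 antisense RNAs with the largest changes among facing pairs in which both genes changed with shBCL9 are shown (RefSeq, GRCh38.p14, 5′ to 3′ on the antisense gene's strand). ZBED5-AS1 diverges from ZBED5 without overlap. SH3RF3-AS1, ILRUN-AS1 and PSMB8-AS1 start inside the sense gene, and their windows share 0 bases with its window. Capitals mark matches to the 5 motifs searched, on either strand; CCGCCC is GGGCGG read on the other strand, and it overlaps the CCAAT match in CCGCCCAAT.
SH3RF3-AS1, chr2:109130070-109130369, reverse strand: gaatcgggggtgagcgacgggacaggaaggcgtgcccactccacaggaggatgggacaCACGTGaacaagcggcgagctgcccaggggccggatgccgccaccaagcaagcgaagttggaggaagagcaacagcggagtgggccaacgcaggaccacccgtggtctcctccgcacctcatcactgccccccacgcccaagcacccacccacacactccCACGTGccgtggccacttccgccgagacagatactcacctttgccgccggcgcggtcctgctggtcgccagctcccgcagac
ILRUN-AS1, chr6:34695904-34696203, forward strand: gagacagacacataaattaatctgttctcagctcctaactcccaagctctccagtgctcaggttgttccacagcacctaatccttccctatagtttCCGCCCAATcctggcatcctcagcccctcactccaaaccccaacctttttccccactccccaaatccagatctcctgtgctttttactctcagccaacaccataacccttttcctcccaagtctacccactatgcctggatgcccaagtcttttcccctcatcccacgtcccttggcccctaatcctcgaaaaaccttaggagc
PSMB8-AS1, chr6:32843836-32844135, forward strand: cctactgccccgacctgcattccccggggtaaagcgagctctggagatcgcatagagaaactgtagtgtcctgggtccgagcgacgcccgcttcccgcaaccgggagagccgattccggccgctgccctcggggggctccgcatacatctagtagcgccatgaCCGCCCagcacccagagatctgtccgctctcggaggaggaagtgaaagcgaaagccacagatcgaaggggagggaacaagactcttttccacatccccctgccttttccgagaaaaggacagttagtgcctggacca
ZBED5-AS1, chr11:10857967-10858266, forward strand: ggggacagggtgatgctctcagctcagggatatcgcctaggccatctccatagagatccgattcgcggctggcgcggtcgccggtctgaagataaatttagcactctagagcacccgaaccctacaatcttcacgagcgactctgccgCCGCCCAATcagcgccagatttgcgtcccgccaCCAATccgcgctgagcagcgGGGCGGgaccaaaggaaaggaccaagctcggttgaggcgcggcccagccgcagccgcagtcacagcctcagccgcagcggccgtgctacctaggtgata
SH3RF3-AS1, the largest fall of the 4, had 2 matches to CACGTG and none to the other motifs in 25 CpG. ILRUN-AS1 had 1 match each to CCAAT and GGGCGG and only 3 CpG. PSMB8-AS1, which fell while PSMB8 rose, had 1 GGGCGG match and 22 CpG. ZBED5-AS1, which fell with ZBED5, had 2 CCAAT and 2 GGGCGG matches and 28 CpG, and 263 of the 300 bases of its window also belong to the window of ZBED5.

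A member's change was read from 1 probe set, and the others did not always follow. The members had 585 probe sets, and 240 members had a single one. Of 73 members with more than 1 probe set above the filter level, 30 had probe sets that differed in sign with shBCL9, 13 of them among the 36 called, and 36 differed with miR-30, 2 of them among the 6 called. The 13 were EPB41L4A-AS1, FGD5-AS1, GABPB1-AS1, MAPKAPK5-AS1, RUSC1-AS1, CKMT2-AS1, NIFK-AS1, EML2-AS1, FAM131B-AS2, ZNF790-AS1, CCDC18-AS1, CBR3-AS1 and PAX8-AS1, and the 2 were RAB11B-AS1 and NIFK-AS1. In NIFK-AS1 and ZNF790-AS1 the other probe set differed with shBCL9 by less than 0.01. CCDC18-AS1 (-0.41 (adjusted p = 0.0018)), CBR3-AS1 (0.24 (adjusted p = 0.042)) and PAX8-AS1 (-0.26 (adjusted p = 0.0064)) had probe sets that differed in sign in both comparisons.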

How the data were processed

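The authors deposited 1 log2 intensity per probe set and array, made by RMA with affy per the submitters' processing notes (versions not given in the sources used here). Per the labels' protocols, Trizol extracts were biotin-labelled with a 3′ IVT kit. They were used without further normalization. Of 54675 probe sets, 41097 have a single symbol in the platform's annotation, 1801 several and 11777 are not listed; 22 with several symbols that include an antisense gene were left out. Each gene was read from its probe set of highest mean.

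All 12 arrays entered 1 linear model of the 4 groups in limma 3.58.1 (lmFit, eBayes; R 4.3.3), after a test on simulated data, and p-values were Benjamini-Hochberg adjusted over 14725 genes; called means under 0.05. The members, lists and rules were chosen with earlier results of these data known. Named are the largest changes in each arm (up to 12 each way, groups not overlapping), members called in both arms, the 8 largest differences of effects each way, often studied and brightest members, and up to 10 pairs each way. Alternatives were other filters, probe set rules, scalings, variance models, covariates, a replicate block and leaving out arrays. Between 17 and 90 values were equal in any pair of arrays, so none is a copy. Figures used Python 3.11.15 and matplotlib 3.10.9.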

Additional observations from a re-analysis of the deposited data

Results flagged for a closer look

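In 35 of the 67 antisense RNAs examined by name, the change with miR-30 and the change with shBCL9 differed by a test of the difference itself (limma, miR-30 effect minus shBCL9 effect, adjusted p under 0.05), beside 26.3% of all genes tested. Many of the 67 were chosen for large changes or large differences between the arms, so this count says nothing about the members as a whole, of which 67 of 378 passed. In 20 of them the difference was positive. The largest were those of TMEM132D-AS1 at 4.05, SH3RF3-AS1 at 2.72 and DTNB-AS1 at 2.17, which fell with shBCL9 by more than 2-fold. EDNRB-AS1 (0.92), FSIP2-AS2 (0.90), PSMA3-AS1 (0.89), KCNK15-AS1 (0.75), PSMB8-AS1 (0.54), GABPB1-AS1 (0.55), ZEB1-AS1 (0.53), FGD5-AS1 (0.44), CKMT2-AS1 (0.42), ILRUN-AS1 (0.46), ATXN1-AS1 (0.70) and USP30-AS1 (0.29) fell with shBCL9 and did not pass the test with miR-30. TRG-AS1 (0.87) and NIFK-AS1 (0.54) passed both tests with opposite signs. TFAP2A-AS1 (0.58), TSPOAP1-AS1 (0.52) and ACTR3-AS1 (0.46) fell in both arms, further with shBCL9.

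In the other 15 the difference was negative. PRKCQ-AS1 (-0.75), TNRC6C-AS1 (-0.51), FOXD3-AS1 (-0.49), GRAPL-AS1 (-0.48), GNAS-AS1 (-0.46), EXTL3-AS1 (-0.46), TNS2-AS1 (-0.43), ZNF687-AS1 (-0.42), RUSC1-AS1 (-0.41), DOCK8-AS1 (-0.36), EMC3-AS1 (-0.32) and EPB41L4A-AS1 (-0.27) rose with shBCL9 and did not pass the test with miR-30. LRRC52-AS1 (-0.42) and CARD8-AS1 (-0.26) fell with miR-30 and did not pass the test with shBCL9. NECTIN3-AS1 (-0.68) passed neither test alone, and its mean was below the filter level in every group but cel-miR-67. The arms were infected and transfected separately, so their difference cannot be told apart from that of the procedures.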

How the results depend on the processing

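The count of antisense RNAs called with shBCL9, 126, stayed within 1.5 times under the other filters, probe set rules, scalings and variance models tried, and lay between 96 and 131 on leaving out an array; it was 55 with the ACTB covariate and 1 with the 18S covariate. Corresponding counts of the difference of effects were 49 to 66 on leaving out an array, 23 and 1. The 17 calls with miR-30 became 28 with array weights, 11 in the 6 transfected arrays alone, 1 with the 18S covariate and 6 to 20 on leaving out an array. Pairs called in the same direction numbered 22 above the 60th percentile, 9 and 0 with the covariates and 24 to 34 on leaving out an array; opposite pairs numbered 21 with array weights, 1 and 0 with the covariates and 5 to 14 on leaving out an array. Labels give groups the same replicate numbers, but the deviations of same-numbered arrays correlated at 0.05 to 0.10 in the infected arm and 0.09 to 0.23 in the transfected arm, so the numbers were not taken to pair the arrays; with a replicate block 136, 17 and 74 members passed for shBCL9, miR-30 and the difference of effects, with 35 pairs in the same and 12 in opposite directions, and in each arm 2 of 3 arrays correlated best with their own number. Directions turned as follows on the log2 scale. With probe sets of a gene averaged, EPB41L4A-AS1 and GNAS changed with shBCL9 by -0.089 and -0.0051 and NIFK-AS1 with miR-30 by -0.035. With plain probe sets, ATXN1, GNAS and ILRUN changed with shBCL9 by 0.19, -0.66 and 0.018, and RAB11B-AS1 with miR-30 by 0.060. With the ACTB covariate, TMPO-AS1 and EPB41L4A changed with shBCL9 by -0.015 and -0.46. With the 18S covariate, shBCL9 changed DOCK8-AS1 by -0.43, EDNRB-AS1 by 0.38, EIF1B-AS1 by -0.15, HOXA-AS3 by -0.051, MIDEAS-AS1 by 0.72, NRSN2-AS1 by 0.71, NUTM2A-AS1 by 1.09, RUSC1-AS1 by -0.16, TMPO-AS1 by -0.21, TNRC6C-AS1 by -0.29, TNS2-AS1 by -0.25, ZNF213-AS1 by 0.24, ANXA2R by -0.0092, DOCK8 by -0.92 and ZNF213 by -0.93. On leaving out an array, CARD8 changed with miR-30 by -0.19 to 0.013, the highest being without miR-30 replicate 3. The probe set of highest mean was chosen again for each array left out. The stricter filter and the smaller fits hold fewer genes or arrays by construction; the other causes were not tested. Of 101 named values that were called, 2 kept call and direction under every alternative. These alternatives include the 18S covariate, which by itself left 1 member called in each comparison. Since 18S values do not overlap between the groups of either arm, the count of 2 cannot show how far calls depend on the other alternatives. Dim probe sets limit what the folds of members below the filter level can show.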
